A study of Mus musculus with 18 samples.

Results

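The genes described here are 8 mouse genes that control sterol regulatory element binding proteins (SREBPs) or carry sterols inside the cell, namely *Srebf1*, *Srebf2*, *Scap*, *Insig1*, *Insig2*, *Stard4*, *Npc1* and *Npc2*. They were chosen by name, with earlier results of these data known. Shares of all genes set beside their counts therefore describe them and do not test whether they stand out as a set. All 8 were among the 22180 genes that have a transcript cluster (the probe group that reports a gene) with a single gene symbol on the Affymetrix Mouse Gene 2.0 ST array. The question was how their RNA signals differed when the histone H3K79 methyltransferase DOT1L was deleted in the cerebellum or inhibited in cultured cerebellar cells. Signals were measured in 3 experiments. Whole cerebella of P3 mice on a C57BL6/J background came from *Dot1l*-cKO animals (*Dot1l* f/f; *Atoh1* cre/+; n = 3) and from controls without Cre (*Dot1l* f/f or f/+; *Atoh1* +/+; n = 3); for control replicate 3 the labels give both f/f and f/+. *Atoh1*-Cre acts in the granule lineage, and cells of these cerebella in which it was never active keep *Dot1l*. Fewer cells of a type and less RNA per cell cannot be told apart in such bulk tissue. Cerebellar granule neuron progenitors (CGNP) of P7 NMRI mice, cultured for 1 day with sonic hedgehog, received the DOT1L inhibitor SGC0946 (n = 3) or its solvent DMSO (n = 3) for 4 h. The 3 CGNP cultures per treatment came from mouse 29, mouse 30 and both pooled, so they are not 3 independent animals. Differentiating cerebellar granule neurons (CGN) of NMRI mice, cultured with fetal bovine serum, received SGC0946 (n = 2) or DMSO (n = 2) for 44 h. By the labels the DMSO arrays of CGN were from P7 mice at 2 and 4 days in vitro. The SGC0946 arrays were from a P7 mouse at 5 and a P9 mouse at 7 days. By these labels treatment cannot be told apart from age and days in culture. The labels conflict, however, as the sample descriptions give 1 day in vitro, and the study's methods give 1 schedule. The dose of SGC0946 is 5 mM in the labels and 5 µM in the methods.

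SREBPs are transcription factors made as membrane proteins of the endoplasmic reticulum. When sterols are low, the escort protein SCAP brings them to the Golgi, where proteases free the active factor, which then switches on genes of cholesterol and fatty acid synthesis and of lipoprotein uptake. When sterols are plentiful, INSIG proteins hold SCAP in the endoplasmic reticulum. *Insig1* and *Stard4* are themselves known SREBP targets, whereas NPC1 and NPC2 bring cholesterol out of lysosomes, and loss of either in mice is known for the death of Purkinje cells in the cerebellum.

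Promoter windows of the regulators are shown first because *Insig1* and *Srebf2* were the SREBP regulators whose signals separated treated from untreated arrays in both culture types. RefSeq windows of 300 bases (250 before and 50 after the annotated start, GRCm38.p6) were at hand for 6 of the 8 genes, 11 windows in all, and not for *Npc1* or *Stard4*. The window of *Insig1* lies at chr5:28071162-28071461 on the plus strand, and that of *Srebf2* at chr15:82147019-82147318 on the plus strand. Capitals mark matches, on either strand, to the sterol regulatory element form TCACNCCAC, to ATCACCCCA (the first 9 letters of the element known from the LDL receptor gene, a form added after the windows had been read), to the E-box CACGTG, to the CCAAT box CCAAT, and to the GC box GGGCGG. The first 2 forms can share bases with each other, but no marked matches overlap here.
Insig1: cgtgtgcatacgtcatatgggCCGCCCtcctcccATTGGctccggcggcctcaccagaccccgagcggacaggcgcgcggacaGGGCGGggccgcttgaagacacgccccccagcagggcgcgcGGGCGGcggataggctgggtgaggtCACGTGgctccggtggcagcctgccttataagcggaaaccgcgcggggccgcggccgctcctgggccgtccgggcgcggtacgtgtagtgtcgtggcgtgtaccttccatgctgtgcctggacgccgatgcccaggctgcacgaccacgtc
Srebf2: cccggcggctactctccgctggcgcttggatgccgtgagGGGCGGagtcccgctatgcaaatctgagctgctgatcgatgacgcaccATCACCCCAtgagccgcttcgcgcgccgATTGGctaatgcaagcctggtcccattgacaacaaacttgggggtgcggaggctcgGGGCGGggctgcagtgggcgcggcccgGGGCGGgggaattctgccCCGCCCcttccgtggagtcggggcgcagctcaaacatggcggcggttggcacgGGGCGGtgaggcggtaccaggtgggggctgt
The *Insig1* window held 1 E-box at position -101 from the start (E-boxes were in 7.15% of all 32851 windows of this length), 1 CCAAT box and 3 GC boxes. E-boxes were in 3 of the 11 windows, the others being overlapping windows of *Scap*. The signal of *Scap* did not rise with SGC0946 (log2 change -0.16 in CGNP and -0.41 in CGN, neither of which passed the test described below). The *Srebf2* window held ATCACCCCA at position -163, a match found in 0.28% of all windows, with 1 CCAAT box (37.4% of all windows) and 5 GC boxes (35.7%). The form TCACNCCAC was in none of the 11 windows and in 1.24% of all windows. Such matches describe letters in a window and do not show binding.

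Across all arrays of an experiment the array medians lay close together, at 4.98 to 5.00 on the log2 scale in cerebella, 4.73 to 4.80 in CGNP and 4.64 to 4.70 in CGN. Signal of *Dot1l* was 9.01 to 9.43 in *Dot1l*-cKO cerebella and 9.05 to 9.13 in controls, a check that says little because the cluster reads the whole gene and Cre removes exon 2 only. The granule lineage marker *Zic1* was bright in all groups (mean log2 signal 12.09 to 12.71). Of the progenitor markers, *Ccnd2* (11.31) and *Barhl1* (10.54) were bright in CGNP with DMSO, above 98.7% and 96.3% of genes. *Atoh1* was at 5.26, above 52.9%, *Gli1* at 4.47, above 35.5%, *Hhip* at 5.52, above 55.3%, and *Gli2* at 5.82, above 57.8%. *Mycn*, *Top2a*, *Mki67* and *Sfrp1* lay between, each above at least 76.8%. *Barhl1* was also bright in CGN with DMSO (9.47), so its brightness does not set CGNP apart, while *Ccnd2* was at 8.45 there, above 86.2%. Of the genes of mature granule neurons, *Kcnd2* (11.57) was bright in CGN with DMSO, above 99.6% of genes. It was also bright in CGNP with DMSO (11.02, above 98.0%) and in control cerebella (10.71, above 97.0%), so it does not set CGN apart. *Gabra6* was at 5.50 in CGN with DMSO, above 56.1%, and *Grin2c* at 4.77, above 46.5%.

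With SGC0946, the signal of *Insig1* was higher than with DMSO in both culture types, and that of *Stard4* in CGN. In CGN the treatment cannot be told apart from the labelled age and days in culture. In *Dot1l*-cKO cerebella no change of the 8 genes passed the test. A gene was called when its Benjamini-Hochberg adjusted p over all 22180 genes was below 0.05 in limma. In CGNP 1 of the 8 genes passed, *Insig1*, against 0.0316% of all genes, and in CGN 2 passed, *Insig1* and *Stard4*, against 0.153%. In cerebella 0 of 8 passed, against 0.0225% of all genes, and 0 were below an unadjusted p of 0.05, against 8.69%. At that unadjusted threshold 3 of the 8 genes were higher with SGC0946 in CGNP (2.25% of all genes) and 4 were higher in CGN (3.39%). All treated arrays lay above all untreated ones for 3 of the 8 genes in CGNP (5.30% of all genes) and for 4 in CGN (17.0%). The median change of the 8 genes was -0.01 in cerebella, 0.20 in CGNP and 0.30 in CGN on the log2 scale, where the medians of all genes were -0.01, 0.00 and -0.01.

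**Figure D1:**
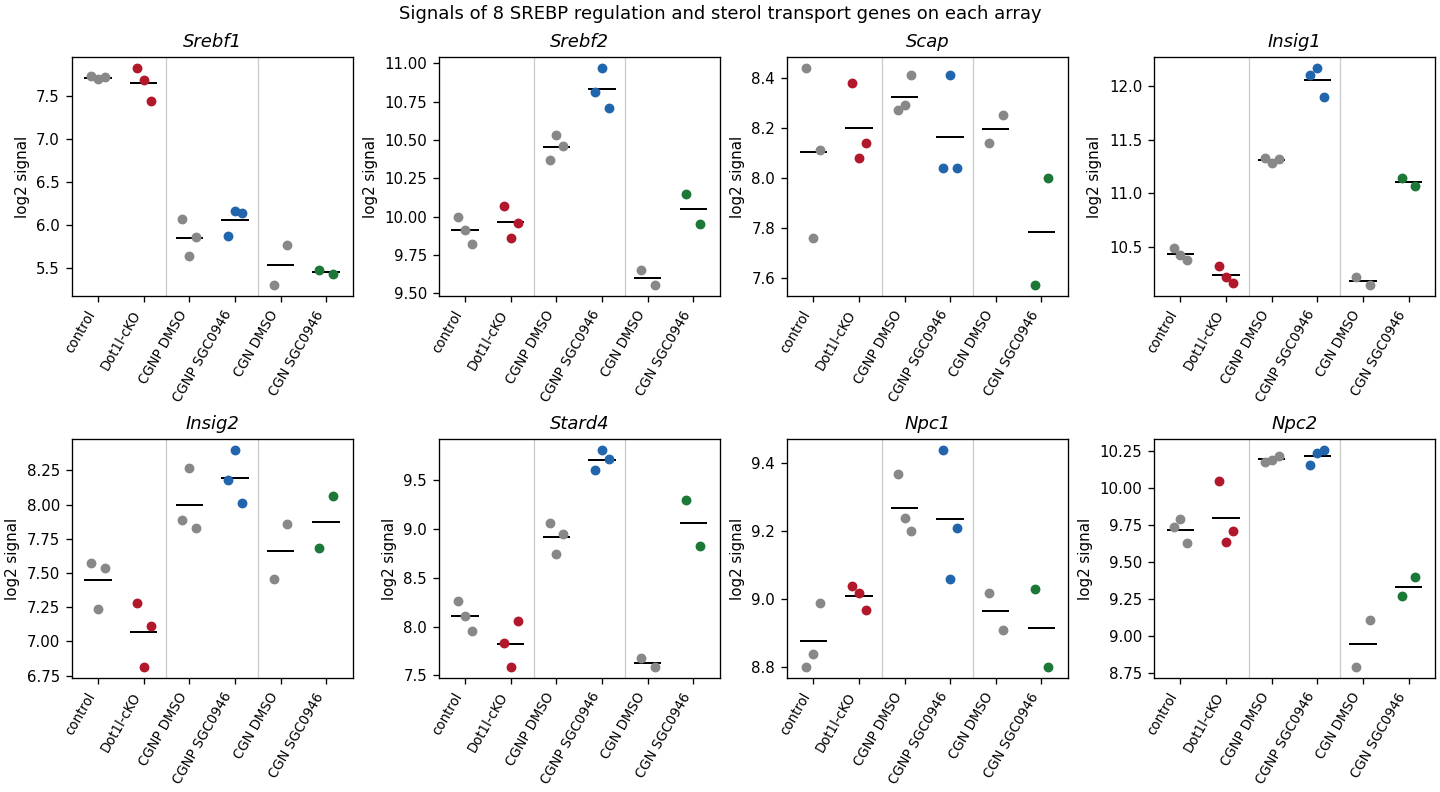
Log2 signal (vertical axis, own range per panel) of each of the 8 genes on each of the 16 compared arrays. Points are arrays, bars are group means, and vertical lines separate cerebella, CGNP and CGN. The 3 SGC0946-treated CGNP arrays of *Insig1* lie at 11.90 to 12.17, all above the 3 DMSO arrays at 11.28 to 11.33.

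*Srebf2* encodes the SREBP that mainly drives cholesterol synthesis. Its log2 signal was 10.37, 10.53 and 10.46 on the CGNP arrays with DMSO and 10.81, 10.97 and 10.71 on those with SGC0946. In CGN it was 9.65 and 9.55 with DMSO and 10.15 and 9.95 with SGC0946. All treated arrays were above all untreated arrays in both culture types. The log2 change was 0.38 (SE 0.10, limma adjusted p = 0.881) in CGNP and 0.45 (SE 0.12, adjusted p = 0.244) in CGN, so neither passed the test over all genes, with unadjusted p of 0.00172 and 0.00214 in the same limma fits. Treated CGNP exceeded their own DMSO culture by 0.44 in the pooled culture, 0.44 for mouse 29 and 0.25 for mouse 30. In cerebella the signal was 10.07, 9.86 and 9.96 in *Dot1l*-cKO and 10.00, 9.91 and 9.82 in controls. These groups overlapped, and the log2 difference was 0.05 with a 95% interval from -0.18 to 0.28.

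*Srebf1* encodes SREBP-1a and SREBP-1c, of which the latter mainly drives fatty acid synthesis, and the array's cluster does not separate these isoforms. It was the dimmest of the 8 genes in cultures, and its signal varied more among replicates than between treatments. CGNP gave 6.07, 5.64 and 5.86 with DMSO and 5.88, 6.17 and 6.14 with SGC0946, and CGN 5.30 and 5.77 with DMSO against 5.48 and 5.43 with SGC0946. The groups overlapped in both culture types, with log2 changes of 0.20 (95% interval -0.21 to 0.62) in CGNP and -0.08 (-0.59 to 0.43) in CGN. In cerebella the *Dot1l*-cKO arrays stood at 7.83, 7.69 and 7.44 around the controls at 7.73, 7.70 and 7.72, a log2 difference of -0.07 (-0.40 to 0.27). In treated CGNP the signal differed from that of the matching DMSO culture by -0.19, 0.53 and 0.28, without a common direction.

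*Scap* encodes the escort that brings SREBPs to the Golgi. Its signal in CGN was 8.14 and 8.25 with DMSO and 7.57 and 8.0 with SGC0946, both treated arrays below both untreated ones. The log2 change of -0.41 (SE 0.19) did not pass (limma adjusted p = 0.668) and was -0.19 without SGC0946 replicate 1, and groups lay apart in this direction for 17.1% of all genes, as CGN had 2 arrays a group. In CGNP the signal was 8.27, 8.29 and 8.41 with DMSO and 8.04, 8.41 and 8.04 with SGC0946, overlapping groups with a change of -0.16 (95% interval -0.49 to 0.17). In cerebella it was 8.38, 8.08 and 8.14 in *Dot1l*-cKO against 8.44, 7.76 and 8.11 in controls, where control replicate 2 was the lowest array of all 6. A dimmer second cluster of *Scap*, at a mean log2 signal of 4.86, gave changes of 0.45 in cerebella (limma adjusted p = 0.535), 0.30 in CGNP and -0.26 in CGN, so both clusters pointed the same way in cerebella and CGN and opposite ways in CGNP.

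*Insig1* encodes an anchor that keeps SCAP in the endoplasmic reticulum, and it was the gene among the 8 whose rise passed the test in both culture types. CGNP gave 11.33, 11.28 and 11.32 with DMSO and 12.10, 12.17 and 11.90 with SGC0946. CGN gave 10.22 and 10.14 with DMSO and 11.14 and 11.07 with SGC0946. Among these compared arrays no treated one reached down to an untreated one, and the gap exceeded the range within every group. The 2 CGN arrays left out for conflicting labels read 10.69 and 11.60. With them the CGN groups would not overlap by the titles (DMSO and SGC0946, in that order) and would overlap by the descriptions. The increase was 1.68-fold in CGNP (log2 change 0.75, SE 0.08, limma adjusted p = 0.0038) and 1.89-fold in CGN (0.92, SE 0.10, adjusted p = 0.0023). These changes exceeded those of 99.9% of all genes in either culture type. Within the matched CGNP cultures the rise was 0.77 in the pooled culture, 0.89 for mouse 29 and 0.58 for mouse 30.

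In cerebella *Insig1* stood at 10.32, 10.22 and 10.16 in *Dot1l*-cKO and at 10.49, 10.42 and 10.38 in controls. All 3 *Dot1l*-cKO arrays were thus below all 3 controls, as for 7.75% of all genes, but the log2 difference of -0.20 (SE 0.10) did not pass (limma adjusted p = 0.589). The genotype and inhibitor changes themselves differed: the change in cerebella was below that in CGNP by 0.94 log2 units (log2 difference -0.94, SE 0.12, adjusted p = 0.00161) and below that in CGN (-1.12, SE 0.13, adjusted p = 0.00069). Such differences passed for 0.0631% and 0.185% of all genes. Between CGN and CGNP the response differed by 0.17 (95% interval -0.09 to 0.44), which did not pass, as for all 22180 genes (0 called in limma, 5.46% at an unadjusted p below 0.05). The call of *Insig1* in CGNP was lost without DMSO replicate 2 (adjusted p = 0.0536) and without the pooled culture (adjusted p = 0.203), with log2 changes of at least 0.69 in every fit that left out an array. The call was also lost in both culture types with ordinary gene-wise variances, at adjusted p of 0.502 in CGNP and 0.193 in CGN.

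*Insig2* encodes the second SCAP anchor, which in contrast to *Insig1* is not a classical SREBP target. Its signal in CGNP was 7.89, 8.27 and 7.83 with DMSO and 8.18, 8.40 and 8.01 with SGC0946. Each treated culture was above its own DMSO culture, by 0.28, 0.13 and 0.19, but the groups overlapped. The log2 change was 0.20 (95% interval -0.18 to 0.58) in CGNP and 0.21 (-0.26 to 0.68) in CGN, where the arrays read 7.46 and 7.86 with DMSO and 7.68 and 8.06 with SGC0946. In cerebella *Insig2* had the lowest value of the 8 changes, -0.38 (SE 0.18, limma adjusted p = 0.585), from 7.28, 6.81 and 7.11 in *Dot1l*-cKO against 7.57, 7.24 and 7.54 in controls. *Dot1l*-cKO replicate 1 lay above control replicate 2, so these groups also overlapped.

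**Figure D2:**
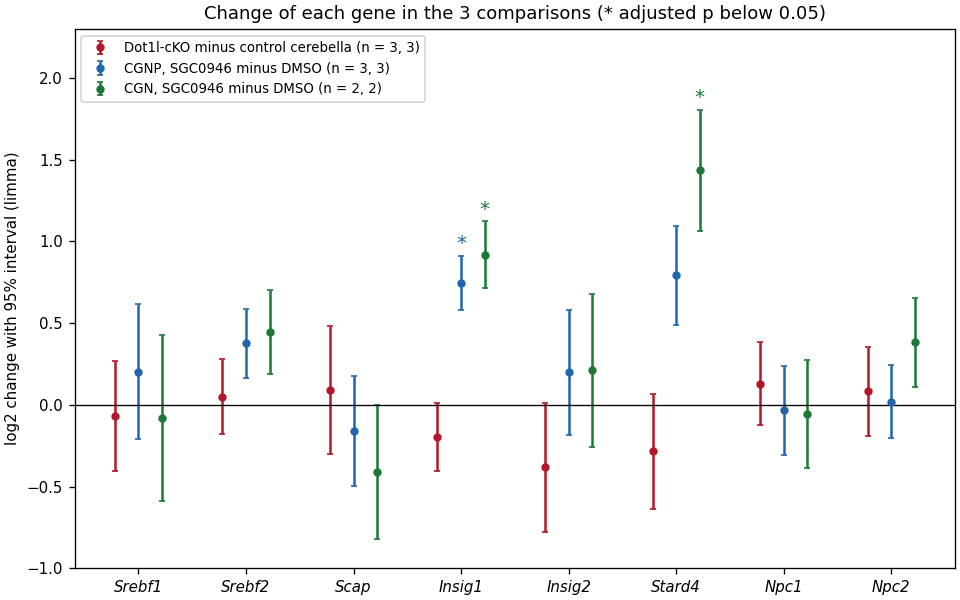
Log2 change of each gene (vertical axis) with its 95% interval from limma in *Dot1l*-cKO minus control cerebella, and in SGC0946 minus DMSO for CGNP and CGN. Stars mark an adjusted p below 0.05, which *Insig1* reached in CGNP (0.75) and CGN (0.92) and *Stard4* in CGN (1.44).

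*Stard4* encodes a soluble carrier that moves cholesterol between membranes in the cytosol, and in CGN it had the steepest increase of the 8 genes. Its signal was 7.68 and 7.58 in CGN with DMSO and 9.30 and 8.83 with SGC0946. In CGNP it was 9.06, 8.74 and 8.95 with DMSO and 9.60, 9.81 and 9.72 with SGC0946. The groups did not overlap in either culture type. The increase in CGN was 2.71-fold (log2 change 1.44, SE 0.17, limma adjusted p = 0.0023), more than for 99.98% of all genes. In CGNP the 1.73-fold difference (0.79, SE 0.14) did not pass (adjusted p = 0.0982). Its adjusted p ranged from 0.0429 to 0.698 over all alternatives, and was below the threshold with dim genes left out (0.0443), with array weights (0.0429) and with CGNP fitted alone (0.0432), and above it in the others, among them the block for the shared mice (0.146), no intensity trend (0.242), ordinary variances (0.643) and the fit without the pooled culture (0.6). Matched CGNP cultures gave 0.54 in the pooled culture, 1.06 for mouse 29 and 0.78 for mouse 30.

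The CGN response of *Stard4* exceeded the CGNP response by 0.64 on the log2 scale (SE 0.22, 95% interval 0.16 to 1.12), which did not pass over all genes (limma adjusted p = 0.811). In cerebella the signal was 7.83, 7.58 and 8.06 in *Dot1l*-cKO and 8.26, 8.11 and 7.95 in controls, overlapping groups with a log2 difference of -0.28 (SE 0.16, adjusted p = 0.662). The change in cerebella was lower than that in CGN by -1.72 (SE 0.24, adjusted p = 0.00287), and than that in CGNP by -1.08 (SE 0.21, adjusted p = 0.0877), which did not pass. In CGN the calls of *Stard4* and *Insig1* were lost when the CGN arrays were fitted alone (adjusted p = 0.242 and 0.216) and that of *Stard4* also with ordinary variances (0.193). Cerebella and cultures differ in strain, age and cell makeup, which cannot be told apart here from the difference between deletion and inhibitor.

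*Npc1* encodes the lysosomal membrane protein that exports cholesterol, and *Npc2* the soluble protein that hands cholesterol to it. *Npc1* read 9.37, 9.24 and 9.20 in CGNP with DMSO and 9.44, 9.06 and 9.21 with SGC0946, and 9.02 and 8.91 in CGN with DMSO and 9.03 and 8.80 with SGC0946. Treated and untreated arrays overlapped in both, with log2 changes of -0.03 (95% interval -0.30 to 0.24) and -0.06 (-0.39 to 0.28). In cerebella it was 9.04, 9.02 and 8.97 in *Dot1l*-cKO and 8.80, 8.84 and 8.99 in controls, a difference of 0.13 (-0.12 to 0.38) with control replicate 3 inside the *Dot1l*-cKO range.

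*Npc2* was nearly constant in CGNP, at 10.18, 10.19 and 10.22 with DMSO and 10.16, 10.24 and 10.26 with SGC0946 (log2 change 0.02, 95% interval -0.20 to 0.24). In CGN it was 8.79 and 9.11 with DMSO and 9.27 and 9.40 with SGC0946. These groups lay apart, as for 17.0% of all genes in this direction, and the change of 0.38 (SE 0.13) did not pass (limma adjusted p = 0.427). In cerebella *Dot1l*-cKO gave 10.05, 9.64 and 9.71 and controls 9.74, 9.79 and 9.63, which overlapped, with a difference of 0.08 (-0.19 to 0.36).

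The other genes of the SREBP machinery that were measured (13 of 15 listed, among them the Golgi proteases *Mbtps1* and *Mbtps2*) had 0 that passed in any of the 3 comparisons, with median changes of -0.05 in cerebella, -0.16 in CGNP and -0.14 in CGN. The smallest unadjusted p belonged to *Hsp90b1*, an endoplasmic reticulum chaperone, in cerebella (-0.25, limma adjusted p = 0.404) and CGN (-0.22, adjusted p = 0.59), and to *Erlin2*, which takes part in degrading sterol sensors, in CGNP (-0.37, adjusted p = 1). Lipoprotein receptors and their helpers (7 of 10 measured) also had 0 that passed, with medians of 0.03, 0.19 and -0.19. Endosomal and non-vesicular sterol transport (15 of 16 measured) had 0 that passed, with medians of 0.07, 0.08 and 0.07, and *Vps35*, a retromer subunit, gave 0.28 in CGN (adjusted p = 0.424). The lysosome genes (13 of 15 measured) had 0 that passed, and 12 of 13 had a higher mean in *Dot1l*-cKO (median 0.10). In the same comparison 10 of 11 microglia and macrophage markers had a higher mean (median 0.36), and their part in this was not tested. In CGN with SGC0946, 11 of 13 lysosome genes (median 0.13) and 5 of 11 microglia and macrophage markers (median -0.05) had a higher mean. In CGNP 6 of 13 lysosome genes did. Cholesterol export and LXR target genes (8 of 9 measured) had 0 that passed, and their median was 0.21 in cerebella, 0.01 in CGNP and -0.31 in CGN.

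Genes known as SREBP targets were called in the same comparisons as *Insig1* and *Stard4*. Of 17 measured cholesterol synthesis genes (21 listed), 5 rose in CGNP and 8 rose in CGN, and all 17 had a higher mean with SGC0946 in CGNP and 16 of 17 in CGN, with median changes of 0.74 and 0.86. *Cyp51*, the lanosterol demethylase, rose by 0.74 in CGNP (limma adjusted p = 0.0038) and by 0.91 in CGN (adjusted p = 0.0023). *Msmo1*, which removes methyl groups of sterols, rose by 0.98 (adjusted p = 0.00994) and 1.30 (adjusted p = 0.0023). Of the mevalonate pathway, *Hmgcs1* and *Fdps* rose in CGN by 0.86 and 1.28 (adjusted p = 0.0023 for each) and had 0.34 and 0.75 in CGNP, where they did not pass. *Fdft1*, the squalene synthase, rose in CGN by 0.87 (adjusted p = 0.0023) and had 0.50 in CGNP, where it did not pass. In cerebella 0 of the 17 passed, 10 had a lower and 7 a higher mean, and *Lbr*, a sterol reductase of the nuclear envelope, was the gene with the smallest p (-0.67, adjusted p = 0.112). Of 13 fatty acid synthesis genes, 1 rose in CGNP and 2 rose in CGN (medians 0.43 and 0.47). *Scd1*, a fatty acid desaturase, rose by 1.36 (adjusted p = 0.0038) and 1.55 (adjusted p = 0.00272), and *Fasn*, the fatty acid synthase, by 0.69 in CGN (adjusted p = 0.04). All these calls were lost, with 0 calls over all genes, in CGNP without the pooled culture or DMSO replicate 2 and in CGN fitted alone, and in both culture types with ordinary variances.

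**Figure D3:**
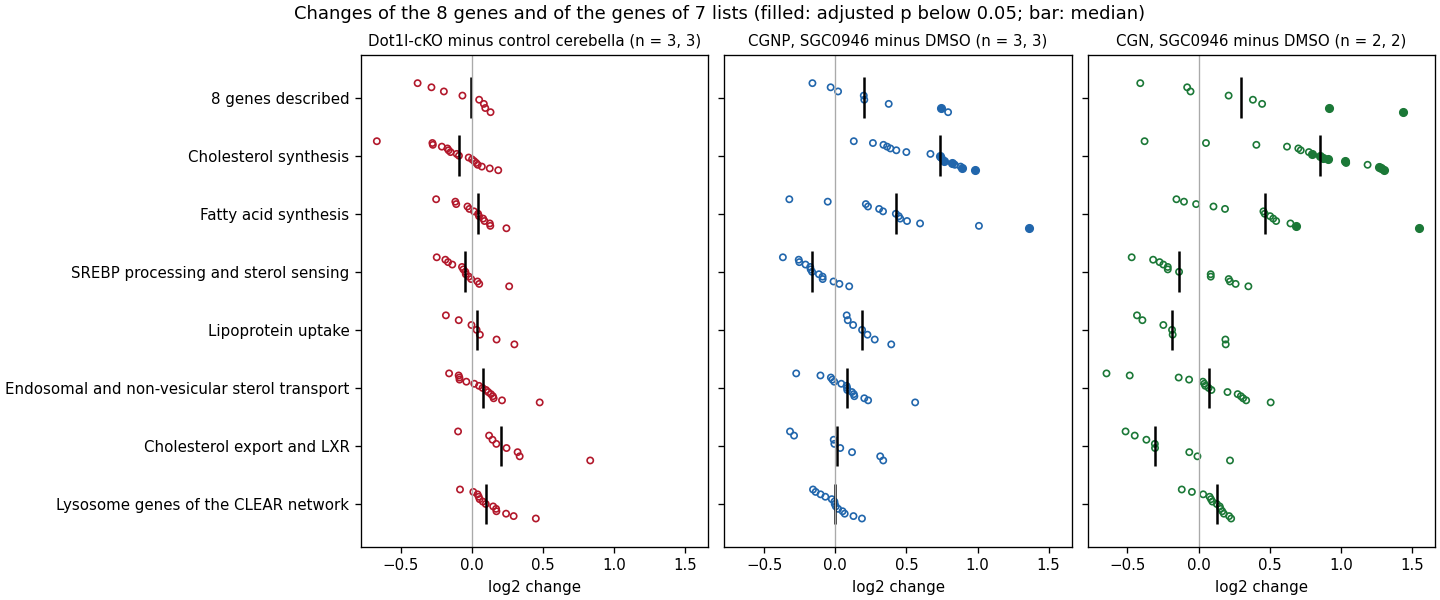
Log2 change of each gene (points) in the 8 genes described and 7 gene lists, for cerebella, CGNP and CGN; filled points have an adjusted p below 0.05 in limma and bars are list medians. Cholesterol synthesis has medians of 0.74 in CGNP and 0.86 in CGN against -0.09 in cerebella, while the SREBP processing list has no filled point.

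Within each experiment other cell types were read from marker lists. In *Dot1l*-cKO 9 of 10 granule progenitor markers had a lower mean (median -0.38), beside which 8 of 8 GABAergic interneuron markers had a higher one (median 0.48), as had 10 of 11 microglia and macrophage markers (median 0.36), 8 of 9 oligodendrocyte lineage markers (median 0.24) and all 10 pericyte, smooth muscle and fibroblast markers (median 0.17). In CGN with SGC0946 all 10 pericyte, smooth muscle and fibroblast markers were lower (median -0.55), their mean level being 6.58 to 7.21 with SGC0946 and 7.27 to 7.62 with DMSO, and all 9 oligodendrocyte lineage markers were lower (median -0.44). In the same arrays 5 of 8 GABAergic interneuron markers (median -0.44) and 8 of 11 astroglia markers (median -0.26) had a lower mean. In CGNP list medians stayed between -0.07 and 0.12. No marker passed the test in any comparison, and the part of these cell types in the values of the 8 genes was not tested.

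Genes with a pattern most like that of each member were sought as Pearson's r over the 16 arrays, each value taken relative to the control mean of its experiment. These r describe arrays that share treatments, and the 5 treated culture arrays stand apart from the others. *Insig1* was closest to *Lss* (r = 0.98), *Cyp51* (0.98) and *Fdps* (0.96), *Stard4* to *Cyp51* (0.96), *Msmo1* (0.95) and *Idh1* (0.95), and *Srebf2* to *Fasn* (0.94), *Msmo1* (0.93) and *Acly* (0.92), all but *Idh1* enzymes of sterol or fatty acid synthesis. The nearest genes of the other 5 members came from other groups, for example *Mnat1* for *Scap* (0.92), *Hspa2* for *Insig2* (0.93), *Chmp1a* for *Npc2* (0.93), *Cd200r1* for *Srebf1* (0.85) and *Gpr20* for *Npc1* (0.84). Among the 28 pairs of members the highest r was that of *Insig1* with *Stard4* (0.94), then *Srebf2* with *Insig1* (0.91) and *Srebf2* with *Stard4* (0.87). With group means removed these r became 0.22, 0.73 and 0.47.

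**Figure D4:**
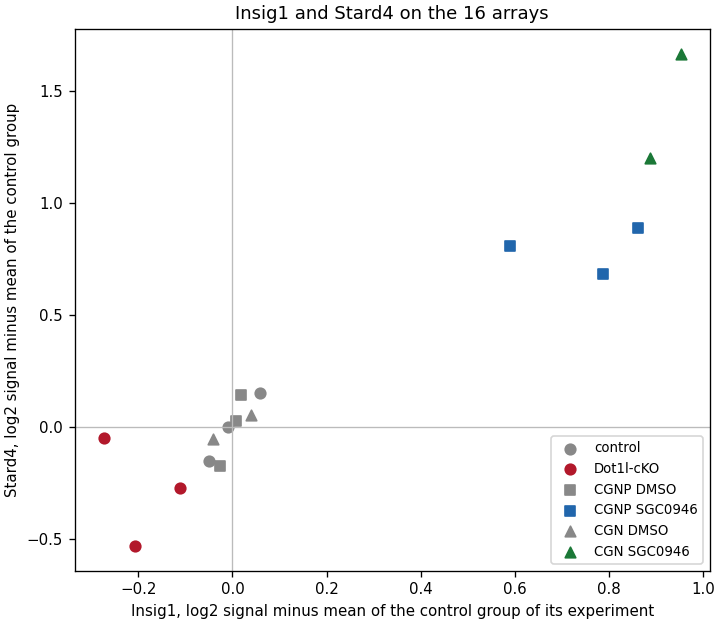
*Stard4* (vertical axis) against *Insig1* (horizontal axis) on the 16 arrays, both as log2 signal minus the mean of the control group of the experiment. The 5 arrays with SGC0946 lie at the upper right, the *Dot1l*-cKO arrays below 0 on both axes, and with group means removed r was 0.22.

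Levels of the 8 genes ranged widely. In CGNP with DMSO the mean log2 signal was 11.31 for *Insig1*, above 98.7% of genes, and 5.86 for *Srebf1*, above 58.1%, although signals of different probe sets do not rank the genes' transcripts. With DMSO, CGN had a lower mean than CGNP for 8 of 8 genes, as 73.9% of all genes had, and the groups lay apart for 6, as for 51.3% of all genes, with *Insig2* and *Srebf1* overlapping. The difference in log2 signal was -1.29 for *Stard4*, -1.25 for *Npc2*, -1.12 for *Insig1* and -0.85 for *Srebf2*. The arrays of each culture type have their own distribution, and after joint quantile normalization 5 of 8 remained lower (*Stard4* -0.77, *Npc2* -0.68, *Insig1* -0.51, *Srebf2* -0.26, *Srebf1* -0.20), while *Scap*, *Npc1* and *Insig2* turned to 0.41, 0.26 and 0.17. Levels of the 8 genes were not compared between cultures and cerebella.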

How the data were processed

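The deposited values are log2 signals of 18 arrays. Per the labels, Partek was run with adjustment for probe sequence and GC content, a background correction by RMA, then quantile normalization and summary of probes by median polish, with versions not given in the sources used. The deposited comparison tables repeat these log2 values beside the authors' p-values, q-values and fold changes, which were not used. Of 34472 clusters, 23521 carry 1 gene symbol, 1820 several and 9131 none; where a gene had several, its brightest cluster was taken, giving 22180 genes with no filter on dim genes. Tests were run in R 4.3.3 using lmFit and eBayes (trend = TRUE) of limma 3.58.1, separately for the 6 cerebella and for 10 culture arrays; cerebella were set against cultures in a fit of all 16 arrays. Residual degrees of freedom were 4 for cerebella and 6 for cultures. P-values were Benjamini-Hochberg adjusted over all genes (threshold 0.05), intervals are 95%, and the fits were tested on simulated data. Replicates are separate samples by the labels, but the pooled CGNP culture shares its mice with the other CGNP cultures. P-values measure only the spread between samples. All culture groups shared 1 variance per gene, so the p-values of CGN rest in part on the spread in CGNP. The number of arrays limits the precision. Same-numbered CGNP cultures share mice by the labels, which pairs them; correlations of their deviations over genes were 0.01, 0.04 and 0.01. The members and lists were chosen with earlier results of these data known. All 8 members were named, and from each list the genes that passed when 4 or fewer, otherwise the 4 with the smallest adjusted p (ties included), with up to 2 of the smallest p where none passed; the other named genes are those most like a member. Promoter windows came from RefSeq. Alternatives were the normalization, a filter on dim genes (log2 signal under 6), other clusters, variance models, array weights, the replicate block and leaving out arrays. In 2 CGN samples title and description name opposite treatments, and they entered no comparison.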

Additional observations from a re-analysis of the deposited data

Results flagged for a closer look

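Genotype and inhibitor changes differed for *Insig1* and *Stard4* by the test of the difference itself (limma over 16 arrays). Of the alternatives, only leaving out single arrays was run for these differences, so their dependence on the variance model was not tested. In CGN, treatment cannot be told apart from the labelled age and days in culture. For *Insig1* the log2 change in *Dot1l*-cKO cerebella minus that in CGNP was -0.94 (SE 0.12, adjusted p = 0.00161), and minus that in CGN -1.12 (SE 0.13, adjusted p = 0.00069). For *Stard4* the change in cerebella minus that in CGN was -1.72 (SE 0.24, adjusted p = 0.00287), and minus that in CGNP -1.08 (SE 0.21, adjusted p = 0.0877), which did not pass. All 5 SGC0946-treated culture arrays were above all DMSO arrays of their culture type for both genes, and the 3 *Dot1l*-cKO arrays were below all controls for *Insig1* but not for *Stard4*.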

How the results depend on the processing

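The results rest on 2 or 3 arrays a group, and array number limits them. Of the 8 genes, 1 passed in CGNP; 2 passed with dim genes left out, with array weights and with CGNP fitted alone, and 0 without intensity trend (*Insig1* adjusted p = 0.162), with ordinary variances and without the pooled culture. In CGN, where 2 passed, 0 did with ordinary variances or with CGN fitted alone. Leaving out single arrays gave 0 to 1 in CGNP, 2 in CGN and 0 in cerebella. With the replicate block for the paired CGNP cultures 1 of 8 passed (*Insig1* 0.75, SE 0.07, adjusted p = 0.0122; *Stard4* adjusted p = 0.146), 10 genes of all passed, and no call of the 8 genes changed. Over all genes, cerebella had 5 calls, 3 without intensity trend, 0 with ordinary variances and 1 to 12 without single arrays (12 without *Dot1l*-cKO replicate 1). CGNP had 7, 14 after repeated quantile normalization, 18 with dim genes left out, 16 with array weights, 16 fitted alone, 1 without intensity trend, 0 with ordinary variances, 0 without the pooled culture and 0 to 7 without single arrays. CGN had 34, 20 with array weights, 0 with ordinary variances, 0 fitted alone and 12 to 257 without single arrays (257 without SGC0946 replicate 2). The cause was not tested.

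Small changes turned sign. In cerebella *Srebf2* ranged from -0.0016 to 0.10, *Npc2* from -0.0424 to 0.16, *Scap* from -0.0785 to 0.26 and *Srebf1* from -0.16 to 0.0399 without single arrays. In CGNP the other clusters gave 0.30 for *Scap* and 0.0121 for *Npc1*, and *Npc1* ranged from -0.14 to 0.0577 without single arrays (0.0166 without DMSO replicate 1). In CGN *Srebf1* ranged from -0.31 to 0.15 and *Npc1* from -0.17 to 0.0568. Among differences, CGN minus CGNP ranged from -0.14 to 0.0891 for *Npc1* (0.0810, 0.0098 and 0.0305 between), -0.18 to 0.21 for *Insig2* (-0.1262, -0.0815 and -0.1794 between) and -0.0253 to 0.17 for *Srebf2*, cKO minus CGNP from -0.0624 to 0.14 for *Npc2*, and cKO minus CGN from -0.22 to 0.25 for *Srebf1* (-0.0778, -0.0039 and -0.0157 between). After joint quantile normalization 5 of 8 genes were lower in CGN than CGNP, with 0.41 for *Scap*, 0.17 for *Insig2* and 0.26 for *Npc1*. Without single arrays, changes that were not called ranged from -0.63 to -0.19 for *Scap*, 0.02 to 0.41 for *Insig2* and 0.22 to 0.54 for *Npc2* in CGN, from 0.0969 to 0.31 for *Srebf1* and 0.0977 to 0.34 for *Insig2* in CGNP, and from -0.40 to -0.16 for *Stard4* in cerebella. No sign turned for *Insig1* or *Stard4* in any alternative run.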

Other observations

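For 2 CGN arrays the title and the description name opposite treatments. On these the log2 signals were 10.69 and 11.60 for *Insig1*, 8.35 and 9.11 for *Stard4*, 9.72 and 10.00 for *Srebf2*, 8.06 and 7.92 for *Insig2*, 7.78 and 7.98 for *Scap*, 9.21 and 9.14 for *Npc1*, 8.29 and 9.10 for *Npc2*, and 5.41 and 5.22 for *Srebf1*, in that order of the arrays. The title gives DMSO for the first and SGC0946 for the second. With both arrays added, the CGN groups of *Insig1*, *Stard4* and *Srebf2* would not overlap by the titles and would overlap by the descriptions. Those of *Scap* and *Npc2* would overlap either way.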
